A study of Mus musculus with 16 samples.

Results

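Acute phase proteins are plasma proteins that the liver makes in changed amounts during infection, injury and inflammation. The genes described here were listed by name: Saa1, Saa2, Saa3, Saa4, Hp, Hpx, Orm1, Orm2, Lcn2 and Crp. All 10 were found among the 50559 gene symbols of the table, and all 10 passed the filter on low counts, which kept 18335 genes. The rule used the symbols alone, although the genes were chosen with earlier results of these data known.

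In hepatocytes, the acute phase genes are switched on mainly by IL-6 through STAT3 and by IL-1 and TNF through NF-κB, together with C/EBP factors and glucocorticoids. Positive acute phase genes rise in that state, and negative ones, such as the genes of albumin and transthyretin, fall. Mouse liver has some of these transcripts at high levels at rest and others at low levels until a stimulus arrives.

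Liver RNA was sequenced from 4 groups of male C57BL/6J mice, with 4 libraries a group, 16 in all, and library totals from 24317111 to 35820234 expected counts. Mice were 6 weeks old when they started a low-fat diet (LFD, named chow in the labels) or a 60% high-fat diet (HFD), which they ate for 10 weeks with treatment in the final 4. Luciferase siRNA, a control, was injected at 10 mg/kg every 2 weeks into LFD and HFD mice, which also had methylcellulose, gavaged 2 times a day. In the HFD + siRNA group the control was replaced by siRNA (20 mg/kg) against ketohexokinase (KHK), the first enzyme of fructose breakdown. In the HFD + Inhib group the methylcellulose held 15 mg/kg of PF-06835919, an inhibitor of KHK, and the siRNA was the control one. The siRNA carried a sugar tag that directs it to hepatocytes, whereas the inhibitor was systemic. In the study, mice were injected with saline or insulin shortly before the liver was taken, and which injection each sequenced mouse had was not given in the sources used here. Levels are CPM, the counts of a gene set against the library total, after scaling of the libraries, given as mean ± SD of 4 libraries. Each library is called a mouse here, although the labels do not state that each came from a separate animal. Fold changes come from edgeR's quasi-likelihood test over all 18335 genes, and a gene was called when its Benjamini-Hochberg adjusted p was under 0.05.

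Khk itself was measured first. Its level was 214, 233, 349 and 268 CPM in the LFD mice and 250, 322, 233 and 250 CPM in the HFD mice. It was 11.8, 9.13, 18.1 and 11.5 CPM in the HFD + siRNA mice and 112, 152, 94.5 and 120 CPM in the HFD + Inhib mice. Khk was 20.9-fold lower with the siRNA (log2 fold change -4.38 ± 0.23 SE, adjusted p = 1.88e-08, edgeR) and 2.21-fold lower with the inhibitor (-1.14 ± 0.20, adjusted p = 0.000752), and neither treated group overlapped the HFD group.

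Counts of fat cell markers were uneven over the libraries. HFD replicate 2 had 21 counts of Lep, 10 of Adipoq, 9 of Plin1 and 261 of Cfd, where the other 3 HFD libraries had 0 of Lep, Adipoq and Plin1 and 21 to 54 of Cfd. It was also the highest HFD library for 7 of the 10 acute phase genes. Among the LFD libraries, replicate 3 had 16 counts of Adipoq, 15 of Plin1 and 11 of Retn and replicate 4 had 7, 6 and 1, where replicates 1 and 2 had 0 of all 3 genes. LFD replicate 4 was the highest LFD library for 5 of the 10 acute phase genes and replicate 3 for none. Without HFD replicate 2, 4 of the 10 genes were called in HFD + Inhib versus HFD in place of 8, with Lcn2 at -1.71 (adjusted p = 0.00965, edgeR) and Saa3 still called, at -1.80, and 3 were called in HFD versus LFD, as with it. In HFD versus LFD 2 were called without LFD replicate 3 and 3 without LFD replicate 4. The part of fat tissue in these libraries' values was not tested.

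The 10 genes differed in abundance by more than 2 orders of magnitude on a per-length scale (CPM per kilobase of the principal transcript). Averaged over the 16 libraries, Hp, whose product haptoglobin binds free hemoglobin, stood at 1180 CPM per kilobase, and Hpx, whose product hemopexin binds heme, at 1160. Orm1, for the plasma carrier alpha-1-acid glycoprotein, followed with 295, the pentraxin gene Crp with 146 and the constitutive serum amyloid Saa4 with 99.1 CPM per kilobase. The inducible serum amyloid genes Saa1 and Saa2, whose products ride on HDL, had 35.7 and 15.5. The lowest levels were those of Orm2 (6.26), of Lcn2, for the siderophore-binding lipocalin 2 (5.28), and of Saa3 (3.2). Hp and Hpx had 1240 ± 209 and 1460 ± 495 CPM per kilobase in LFD and 1190 ± 175 and 1420 ± 289 with the siRNA, gaps within the larger SD. Hp stood above Hpx in HFD, at 1250 ± 129 and 1040 ± 142, and in HFD + Inhib, at 1050 ± 193 and 708 ± 186, and there the gaps were larger than either SD. Hp ranked between 39 and 49 among 37796 genes with a length in the 4 groups, whereas Saa3 ranked between 7109 and 11012. The 10 genes together took 0.456% ± 0.0828 of all counts in LFD, 0.426% ± 0.0422 in HFD, 0.446% ± 0.0691 with the siRNA and 0.291% ± 0.0434 with the inhibitor.

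**Figure D1:**
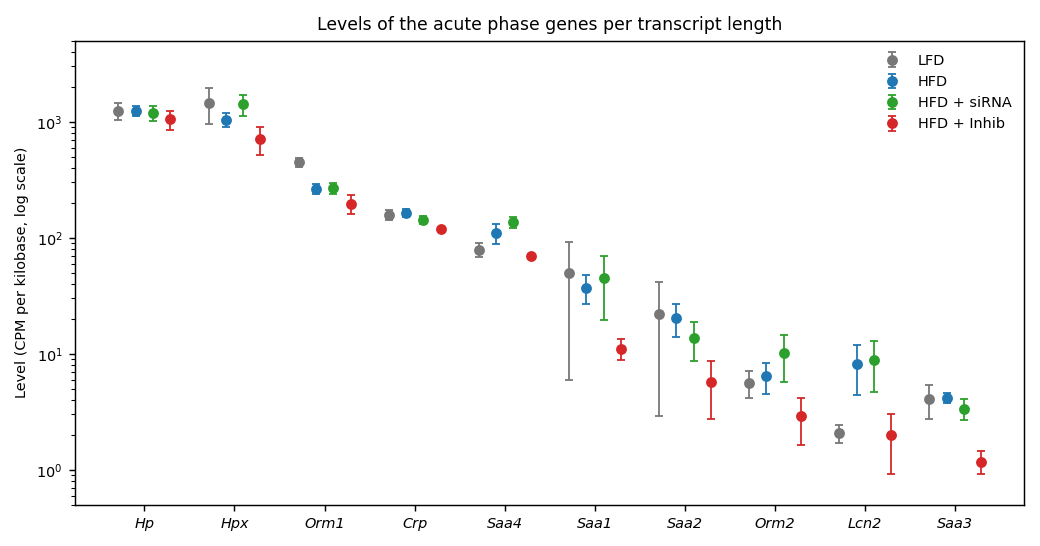
Level of each acute phase gene per transcript length (CPM per kilobase, log scale) in the 4 groups, as the mean of 4 mice with the SD as bars. Hp lies between 1050 and 1250 CPM per kilobase and Saa3 between 1.18 and 4.18.

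The proximal promoters of 6 of the genes called lower with the inhibitor are shown. That of Saa4, also called lower, carries the letters that the liver factor C/EBP is known to bind but is not shown. Of the 6 shown, 5 carry these letters and that of Crp does not. Each is the 250 bases upstream of the annotated start, from RefSeq on build GRCm38.p6, written 5′ to 3′ on the strand of the gene. Capitals mark the word TTGCNNAA, searched on both strands, and its reverse complement where it lies on the other strand. The Saa1 and Saa2 windows lie on opposite strands of chromosome 7, at chr7:46742981-46743230 (minus) and chr7:46751583-46751832 (plus). Saa3 was read from chr7:46715677-46715926 (minus), Orm2 from chr4:63362199-63362448 (plus), Lcn2 from chr2:32387740-32387989 (minus) and Crp from chr1:172697806-172698055 (plus).
Saa1: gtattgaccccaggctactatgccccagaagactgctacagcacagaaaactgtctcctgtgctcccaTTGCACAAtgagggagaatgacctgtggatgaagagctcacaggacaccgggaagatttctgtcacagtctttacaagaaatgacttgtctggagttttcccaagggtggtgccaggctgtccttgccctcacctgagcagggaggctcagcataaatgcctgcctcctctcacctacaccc
Saa2: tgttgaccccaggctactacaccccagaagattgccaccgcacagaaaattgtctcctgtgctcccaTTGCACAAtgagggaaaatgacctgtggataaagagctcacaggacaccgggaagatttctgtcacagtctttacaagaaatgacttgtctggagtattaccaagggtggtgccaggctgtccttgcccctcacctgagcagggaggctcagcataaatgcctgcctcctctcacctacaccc
Saa3: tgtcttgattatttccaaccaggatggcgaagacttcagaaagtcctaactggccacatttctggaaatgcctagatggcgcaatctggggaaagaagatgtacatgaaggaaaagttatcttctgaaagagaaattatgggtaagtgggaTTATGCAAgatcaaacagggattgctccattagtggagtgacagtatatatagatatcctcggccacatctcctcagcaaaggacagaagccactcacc
Orm2: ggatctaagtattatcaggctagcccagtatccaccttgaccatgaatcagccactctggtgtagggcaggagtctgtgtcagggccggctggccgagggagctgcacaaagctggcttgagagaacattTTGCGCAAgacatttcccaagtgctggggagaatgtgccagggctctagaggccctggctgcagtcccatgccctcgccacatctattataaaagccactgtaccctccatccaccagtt
Lcn2: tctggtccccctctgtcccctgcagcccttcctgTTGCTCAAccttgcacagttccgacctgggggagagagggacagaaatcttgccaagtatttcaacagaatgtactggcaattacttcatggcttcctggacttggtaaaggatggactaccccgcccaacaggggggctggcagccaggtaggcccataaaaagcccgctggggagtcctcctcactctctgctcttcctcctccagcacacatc
Crp: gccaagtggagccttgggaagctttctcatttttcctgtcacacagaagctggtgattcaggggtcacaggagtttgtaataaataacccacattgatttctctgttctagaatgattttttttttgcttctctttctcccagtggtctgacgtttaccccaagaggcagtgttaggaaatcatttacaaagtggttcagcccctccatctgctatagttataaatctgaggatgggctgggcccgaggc
The C/EBP word was present in 7 of the 8 windows that the promoter table holds for these genes, those of Saa1, Saa2, Saa3, Saa4, Hpx, Orm2 and Lcn2, against 9.56% of 32851 mouse promoters of the same length. It began 182 bases before the start in Saa1 and 183 in Saa2, 120 in Orm2 and 216 in Lcn2. The Saa1 and Saa2 windows were 94.8% identical (238 of 251 aligned positions). The words TTCCNNGAA for STAT3, CTGGGAA for the IL-6 element and GGGA, NN and TTCC in a row for NF-κB were searched on both strands and were in none of the 8 windows, and in 4.06%, 9.1% and 1.21% of all promoters. A match is a description of these letters and is no measure of binding. Words this rare are expected in few or none of 8 windows. Other spellings of the sites and bases further upstream were not searched, so absence of a word does not show that a site is lacking. Hp and Orm1 were not searched.

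The first comparison asked how the high-fat diet alone moved these genes. Lcn2 and Saa4 were higher in HFD than in LFD and Orm1 was lower, and the other 7 were not called. This is 3 of 10 genes called, where 18.4% of all genes tested were called.

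Lcn2 had 1.59, 1.90, 1.70 and 2.37 CPM in the LFD mice and 7.85, 12.3, 4.44 and 5.51 CPM in the HFD mice. Every HFD mouse lay above every LFD mouse, and the rise was 3.99-fold (log2 fold change 1.99 ± 0.41 SE, adjusted p = 0.00416, edgeR). The counts behind it were 38 to 72 per LFD library and 117 to 479 per HFD library.

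Orm1 had 315, 347, 342 and 383 CPM in LFD and 205, 236, 198 and 186 CPM in HFD. The groups did not overlap, and the fall was 1.68-fold (-0.75 ± 0.13, adjusted p = 0.00119, edgeR). Its near copy Orm2 showed 4.35 ± 1.13 CPM in LFD and 5 ± 1.52 in HFD (0.21 ± 0.32, adjusted p = 0.694).

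Saa4 had 144, 174, 150 and 194 CPM in LFD and 264, 168, 228 and 262 CPM in HFD. One HFD mouse, at 168 CPM, lay within the LFD range, and the rise was 1.39-fold (0.48 ± 0.13, adjusted p = 0.0195, edgeR). That call was lost when any of 4 libraries was left out, LFD replicate 1 or 3 or HFD replicate 1 or 4, with adjusted p from 0.0589 to 0.0622.

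Saa1 and Saa2 varied most among the LFD mice. Saa1 had 68.5, 16.4, 9.67 and 25.7 CPM in LFD and 22.4, 30.3, 14.9 and 23.1 CPM in HFD, so that a single LFD mouse held both the LFD maximum of Saa1 and, at 31.9 CPM, that of Saa2. The same mouse had the highest LFD levels of Hp (2010 CPM) and Hpx (3270 CPM). The difference of Saa1 between the diets was -0.40 ± 0.46 (adjusted p = 0.593, edgeR) with that mouse and 0.41 without it (adjusted p = 0.517). Neither value passed the test, and the 95% interval, -1.38 to 0.58, holds changes of more than 2-fold downward.

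**Figure D2:**
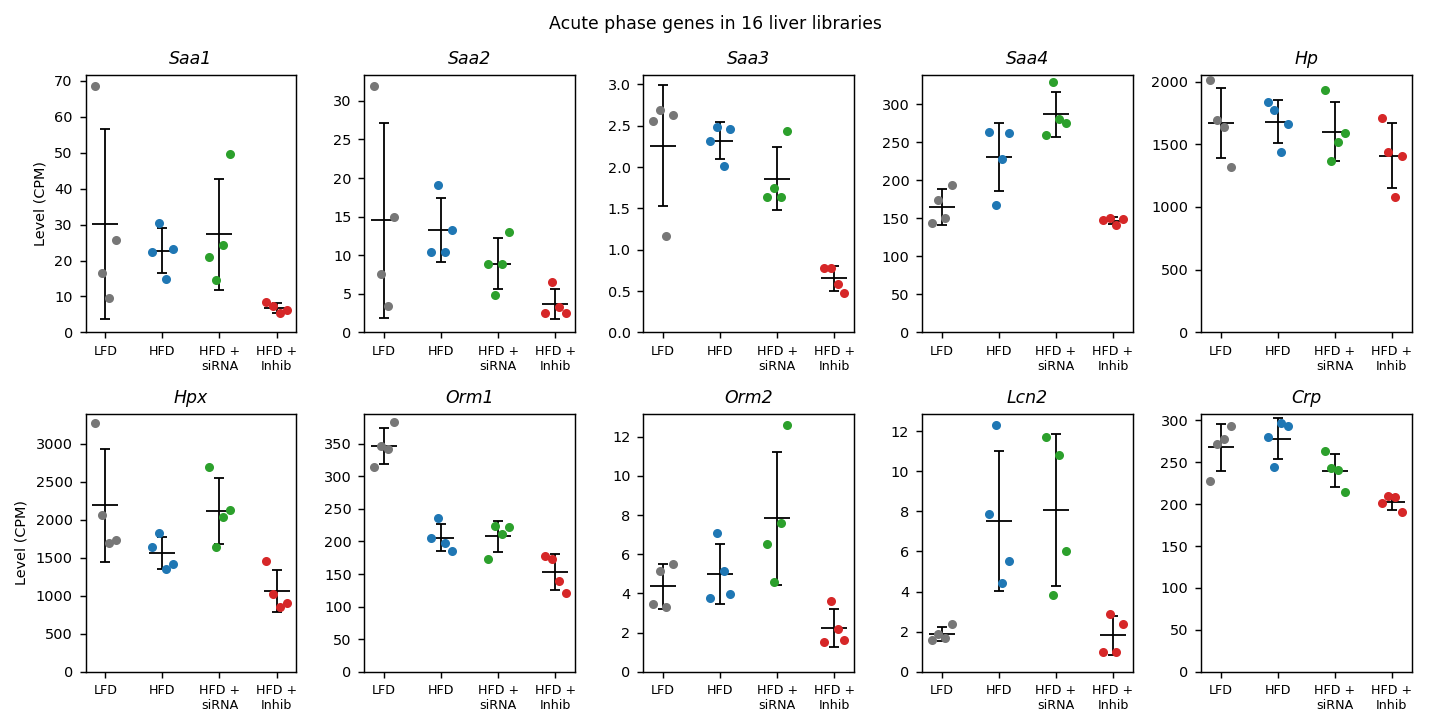
Level (CPM, axis from 0) of each acute phase gene in each of 16 liver libraries. Points are mice and black bars the mean ± SD of 4. The HFD + Inhib mice lie below all HFD mice for Saa1, Saa2, Saa3, Saa4, Orm1, Orm2, Lcn2 and Crp.

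Knockdown of KHK in HFD-fed mice was compared next. None of the 10 genes was called in HFD + siRNA versus HFD by edgeR, and none by DESeq2, where edgeR called 11.7% of all genes tested. At an unadjusted p under 0.05 there were 2, Saa4 (0.31 ± 0.13, adjusted p = 0.131) and Crp (-0.21 ± 0.09, adjusted p = 0.155). The HFD + siRNA and HFD groups overlapped for all 10 genes, where 20.6% of all genes tested had groups that did not overlap.

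Lcn2 had 11.7, 3.82, 10.8 and 6.00 CPM with the siRNA, a spread that spans most of the HFD range, and its difference from HFD was 0.10 ± 0.38 with a 95% interval from -0.70 to 0.90. Orm1 had 173, 224, 212 and 222 CPM and differed by 0.01 ± 0.12, with an interval from -0.25 to 0.27. The intervals were widest for Saa1 (0.27, from -0.71 to 1.25) and Saa2 (-0.58, from -1.63 to 0.47), so that a 2-fold rise of Saa1 or a 2-fold fall of Saa2 lay within the error of 4 mice a group.

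Against LFD, the HFD + siRNA group had 3 of 10 genes called, where 8.63% of all genes were called. Lcn2 was 4.26-fold higher (2.09 ± 0.41, adjusted p = 0.00487, edgeR), Saa4 was 1.73-fold higher (0.79 ± 0.13, adjusted p = 0.00151) and Orm1 was 1.67-fold lower (-0.74 ± 0.13, adjusted p = 0.00178). The comparison shares its LFD libraries with that of HFD versus LFD.

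The inhibitor was compared with HFD alone. Of the 10 genes, 8 were called and all 8 were lower, where 18.2% of all genes tested were called and 8.42% were called lower. Lcn2, Saa2, Saa3 and Saa1 were lower by 3.35-fold to 4.17-fold, Orm2 by 2.26-fold, and Saa4, Crp and Orm1 by 1.35-fold to 1.57-fold. Hp and Hpx, the most abundant pair, were not called. The 8 genes called were also the ones whose groups did not overlap, and 23.3% of all genes tested had such groups. The median log2 fold change of the 10 genes was -0.91, and that of all genes tested was 0.

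Lcn2 had 0.989, 2.87, 1 and 2.40 CPM with the inhibitor. All 4 mice lay below the lowest HFD mouse, at 4.44 CPM, and the fall was 4.17-fold (-2.06 ± 0.41, adjusted p = 0.00225, edgeR). The level was 1.82 ± 0.966 CPM, beside 1.89 ± 0.345 in LFD, and that difference was -0.07 ± 0.43 with a 95% interval from -0.97 to 0.84.

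Saa3, which macrophages and fat cells also express, had 2.56, 2.69, 1.16 and 2.63 CPM in LFD, 2.32, 2.49, 2.01 and 2.46 in HFD, 1.64, 1.75, 1.64 and 2.43 with the siRNA and 0.777, 0.777, 0.582 and 0.479 with the inhibitor. All HFD + Inhib mice lay below all other mice. The fall against HFD was 3.56-fold (-1.83 ± 0.26, adjusted p = 0.000142, edgeR), on counts of 53 to 97 per HFD library and 16.07 to 22 per HFD + Inhib library.

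Saa1 had 8.40, 7.34, 5.27 and 6.11 CPM with the inhibitor, 3.35-fold below HFD (-1.75 ± 0.49, adjusted p = 0.0200, edgeR). Saa2 had 10.4, 19.1, 10.4 and 13.3 CPM in HFD and 2.51, 6.56, 3.24 and 2.55 CPM with the inhibitor, 3.62-fold lower (-1.86 ± 0.52, adjusted p = 0.0206). In both genes the highest treated mouse lay below the lowest HFD mouse.

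Orm2 had 3.78, 7.08, 5.16 and 3.98 CPM in HFD and 1.52, 3.61, 2.20 and 1.62 CPM with the inhibitor (-1.17 ± 0.33, adjusted p = 0.0200, edgeR). Orm1 had 178, 173, 139 and 121 CPM with the inhibitor (-0.44 ± 0.12, adjusted p = 0.0222). Against LFD, where Orm1 was highest, the HFD + Inhib level was 2.27-fold lower (-1.18 ± 0.13, adjusted p = 3.91e-06), and no HFD-fed mouse of any group reached the lowest LFD mouse.

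The calls of Saa1, Saa2, Orm1 and Orm2 against HFD were close to the threshold. Leaving out HFD replicate 2, the highest HFD mouse for all 4, or HFD + Inhib replicate 4 raised the adjusted p of all 4 to between 0.0531 and 0.0768. Without HFD + Inhib replicate 3 the calls of Saa1, Saa2 and Orm1 were lost, and without HFD + Inhib replicate 1 those of Saa2 and Orm2. Their fold changes stayed below 0 in each of these fits, and Saa3, Saa4, Lcn2 and Crp were called in all of them.

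Saa4 had 148, 151, 141 and 149 CPM with the inhibitor, the tightest group of the 4, against 264, 168, 228 and 262 in HFD (-0.65 ± 0.13, adjusted p = 0.00255, edgeR). Crp, which responds only moderately to inflammation in the mouse, had 280, 244, 297 and 293 CPM in HFD and 201, 210, 208 and 191 CPM with the inhibitor (-0.46 ± 0.09, adjusted p = 0.00260). Neither pair of groups overlapped.

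Hp had 1840, 1770, 1440 and 1660 CPM in HFD and 1710, 1440, 1080 and 1410 CPM with the inhibitor, overlapping groups with a difference of -0.25 ± 0.15 (adjusted p = 0.286, edgeR). Hpx had 1640, 1820, 1350 and 1420 CPM in HFD and 1460, 1020, 853 and 906 CPM with the inhibitor (-0.55 ± 0.22, adjusted p = 0.0916). One treated mouse was within the HFD range of Hpx, and without that mouse the difference was -0.75 with an adjusted p of 0.0293. Hpx was also called with a block for the replicate number (-0.59, adjusted p = 0.014, edgeR). With only the 2 groups compared it was called too (-0.57, adjusted p = 0.0478, edgeR). Hp was called in none of the 6 comparisons by edgeR or DESeq2, and its lowest unadjusted p was 0.119.

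**Figure D3:**
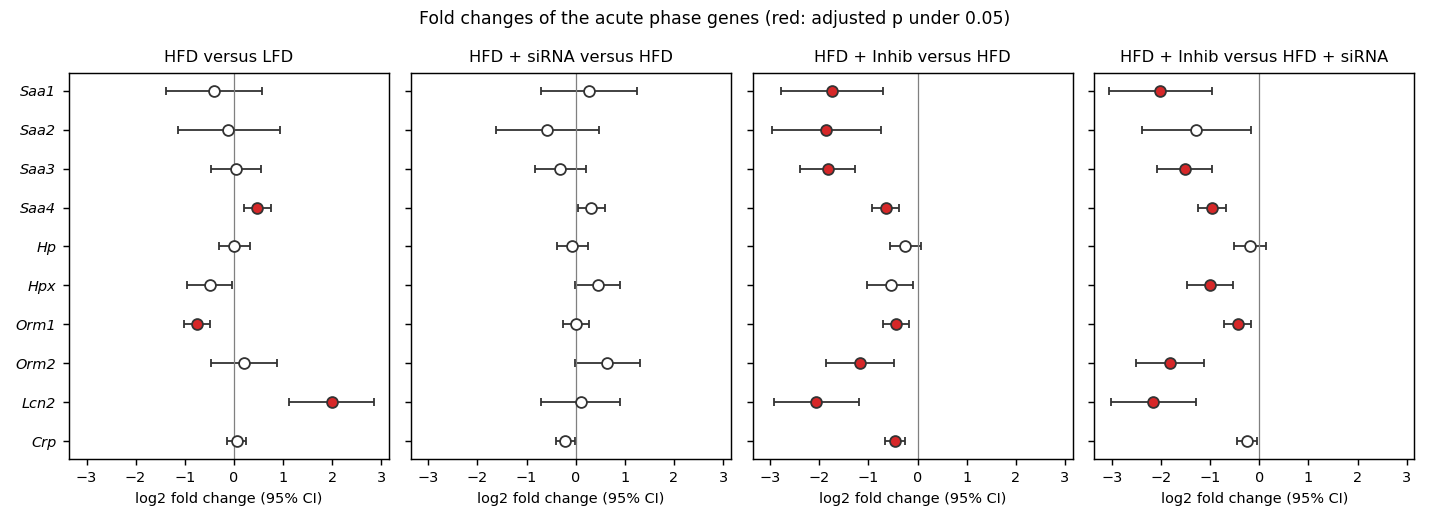
log2 fold change with its 95% confidence interval for each acute phase gene in 4 comparisons of 4 against 4 mice. Filled red points were called at an adjusted p under 0.05, 3 for the diet, 0 for the siRNA against HFD, 8 for the inhibitor against HFD and 7 for the inhibitor against the siRNA.

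The inhibitor and the knockdown were also compared directly. All 10 genes had fold changes below 0 in HFD + Inhib versus HFD + siRNA and 7 were called, all lower, where 33.9% of all genes tested were called and 16.6% were called lower. Lcn2 was 4.46-fold lower (-2.16 ± 0.41, adjusted p = 0.000869, edgeR), Saa1 4.04-fold lower (-2.02 ± 0.49, adjusted p = 0.00501) and Orm2 3.53-fold lower (-1.82 ± 0.33, adjusted p = 0.00058). Saa3, Saa4, Hpx and Orm1 were also lower.

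Hpx was called here, with 2690, 1640, 2030 and 2130 CPM in HFD + siRNA and 1460, 1020, 853 and 906 CPM in HFD + Inhib (-1 ± 0.22, adjusted p = 0.00245, edgeR). The groups did not overlap. Crp had 263, 243, 241 and 214 CPM with the siRNA, all above the 4 inhibitor mice, and its difference of -0.25 ± 0.09 had an adjusted p of 0.0501. DESeq2 called Crp in this comparison (adjusted p = 0.0411). Saa2 differed by -1.28 ± 0.52 (adjusted p = 0.0700), and it was called without HFD + Inhib replicate 2 (-1.68, adjusted p = 0.0338). Saa1 and Saa2 summed, whose split is uncertain, differed by -1.78 (adjusted p = 0.0101). Hp differed by -0.19 ± 0.15 (adjusted p = 0.371).

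Against LFD, all 10 fold changes of the HFD + Inhib group were below 0 and 7 were called, where 36.9% of all genes tested were called and 18.2% were called lower. The genes called were Saa1 (-2.14 ± 0.49), Saa2 (-1.96 ± 0.53), Saa3 (-1.79 ± 0.26), Hpx (-1.05 ± 0.22), Orm1, Orm2 (-0.97 ± 0.33) and Crp (-0.40 ± 0.09). Without LFD replicate 1, the highest LFD mouse for Saa1 and Saa2, their differences were -1.34 (adjusted p = 0.0138, edgeR) and -1.22 (0.0481). The call of Orm2 was lost in the fits without LFD replicate 2, LFD replicate 4 or any 1 of HFD + Inhib replicates 1, 3 and 4, with adjusted p from 0.0637 to 0.0906.

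Saa1 and Saa2 share sequence, as do Orm1 and Orm2, and RSEM divides reads that match both. Of the 50-base words of the principal transcript of Saa1, 13.2% also occur in Saa2, and 20.4% of those of Orm1 occur in Orm2. The levels of Saa1 and Saa2 were not whole numbers of reads in 15 of 16 libraries each, and those of Orm1 and Orm2 in 16 of 16, so that the split within each pair is uncertain. Saa1 and Saa2 summed came to 36 ± 10.1 CPM in HFD, 36.3 ± 18.5 with the siRNA and 10.5 ± 2.52 with the inhibitor. Orm1, Orm2 and Orm3 summed came to 352 ± 29.3 CPM in LFD, 212 ± 22.8 in HFD, 218 ± 25.5 with the siRNA and 156 ± 27.9 with the inhibitor. The share of Orm2 in the sum of Orm1 and Orm2 was 0.949% to 1.45% in the LFD libraries, 1.81% to 2.91% in HFD, 2.01% to 5.38% with the siRNA and 0.848% to 2.04% with the inhibitor. The inhibitor range overlapped those of the other 3 groups, and the HFD range overlapped that of the siRNA.

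The other genes of the response were counted from lists named for their role. Of 32 other positive acute phase genes tested, 11 were called in HFD + Inhib versus HFD, 2 higher and 9 lower, with a median log2 fold change of -0.30. These are 34.4% of the list, beside the 18.2% of all genes tested that were called in this comparison, 8.42% as lower, which is the background for each list below. Lower were Serpina3m, a serine protease inhibitor (-1.55 ± 0.17, adjusted p = 1.1e-05, edgeR), Itih4, an inter-alpha-trypsin inhibitor heavy chain (-1.44 ± 0.13, adjusted p = 1.54e-06), and Agt, for angiotensinogen (-0.73 ± 0.14, adjusted p = 0.00159). Among the higher was Il1rn, for the IL-1 receptor antagonist, with 3.49 CPM in HFD and 20.5 with the inhibitor (2.57 ± 0.34, adjusted p = 5.89e-05).

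The same 32 genes gave 4 higher and 9 lower in HFD versus LFD (40.6%, beside 18.4% of all genes), with Il1rn (1.36 ± 0.36) among the higher and Serpina1e (-2.84 ± 0.79) the most decreased. In HFD + siRNA versus HFD edgeR called 4 higher, Itih3, Serpina1a, C3 and Mbl1, and 0 lower. These 12.5% are close to the 11.7% of all genes. DESeq2 called 6 higher and 0 lower, and at an unadjusted p under 0.05 there were 9 higher and 0 lower. The shares of all genes at those settings are not given here. Itih3 gained 0.52 ± 0.14, Serpina1a 0.51 ± 0.11 and Mbl1 0.50 ± 0.15 on the log2 scale.

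Negative acute phase genes were lower with the inhibitor too. Of 12, 8 were called in HFD + Inhib versus HFD (66.7%, beside 18.2% of all genes) and all were lower, with a median of -0.60. Ahsg, for fetuin A, had 5010 CPM in HFD and 2410 with the inhibitor (-1.05 ± 0.13, adjusted p = 3.15e-05, edgeR), Ttr, for transthyretin, 3630 and 1900 CPM (-0.93 ± 0.12, adjusted p = 5.56e-05), and Trf, for transferrin, 10700 and 5970 CPM (-0.84 ± 0.16, adjusted p = 0.00141). In HFD + siRNA versus HFD 1 of the 12 was called, Ambp (0.30 ± 0.09), which is 8.33% and under the 11.7% of all genes. In HFD versus LFD 4 were called (33.3%, beside 18.4% of all genes), Serpina6 higher (1.07 ± 0.23) and Fetub (-1.09 ± 0.13), Apoa1 (-0.50 ± 0.15) and Ambp (-0.37 ± 0.09) lower.

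**Figure D4:**
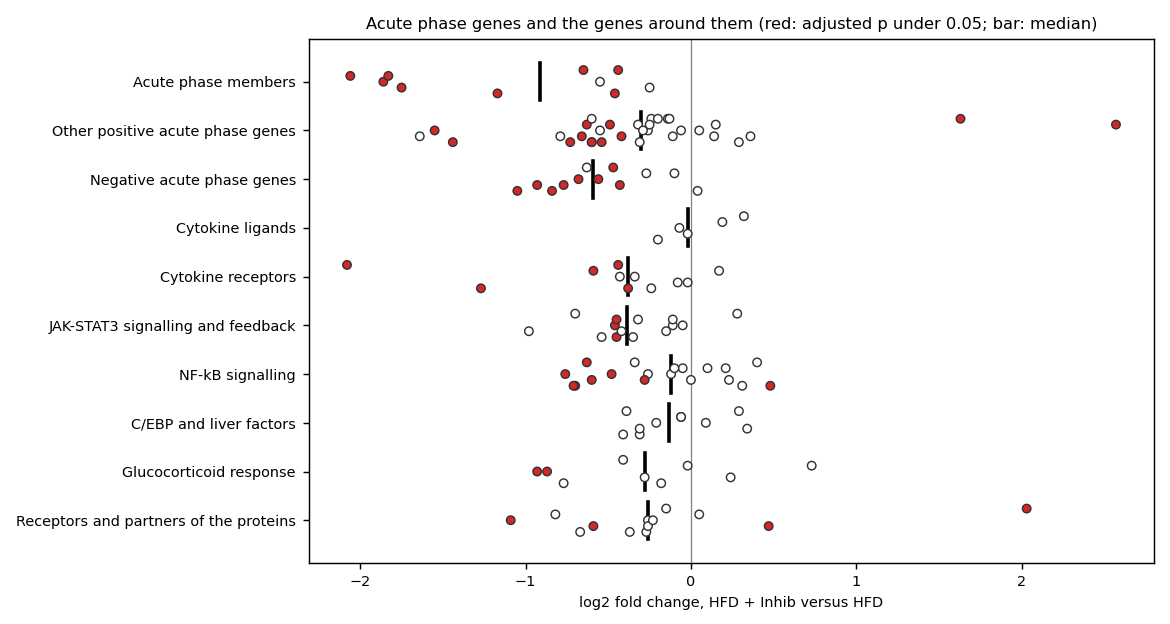
log2 fold change of each tested gene in HFD + Inhib versus HFD, by list. Points are genes, filled red where called, and the vertical bar is the list median, -0.91 for the 10 acute phase genes, -0.30 for the other positive and -0.60 for the negative acute phase genes.

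Of the cytokine messages that drive the response, those of IL-6, oncostatin M, TNF and IL-22 were scarce in these livers. Il6 had 0 to 3 counts per library over the 16 libraries, Osm 0 to 3, Tnf 4 to 19 and Il22 none, where a count of 0 allows up to 3 in a library by counting error. The IL-1 genes were measurable, with Il1a at 3.4 ± 0.771 CPM in HFD and 3.87 ± 0.599 with the inhibitor and Il1b at 1.15 ± 0.13 and 1.43 ± 0.794 CPM. Of the 12 ligands, 5 passed the filter, and none of these was called in HFD + Inhib versus HFD by edgeR or DESeq2, with 0 at an unadjusted p under 0.05. In HFD + siRNA versus HFD 1 of the 5 was called, Il18, which was higher (0.50 ± 0.15, adjusted p = 0.0412, edgeR), where 11.7% of all genes were called. Between the inhibitor and the siRNA 2 of the 5 were called, where 33.9% of all genes were. Il1a was higher with the inhibitor (0.74 ± 0.18, adjusted p = 0.00534, edgeR) and Il18 lower, at 6.08 CPM beside 9.01 with the siRNA (-0.57 ± 0.15, adjusted p = 0.00829).

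Receptors of these cytokines were lower with the inhibitor in 5 of 11 cases and higher in none, where 8.42% of all genes were called lower. Il22ra1, a subunit of the IL-22 receptor, fell from 10.7 to 2.51 CPM (-2.08 ± 0.35, adjusted p = 0.000547, edgeR). Il6ra, which binds IL-6, fell from 38.3 ± 9.62 to 15.8 ± 3.92 CPM (-1.27 ± 0.18, adjusted p = 0.000142), and Il1rap, a partner of the IL-1 receptor, from 176 to 117 CPM (-0.59 ± 0.11, adjusted p = 0.0017). With the knockdown 0 of the 11 were called by edgeR, where 11.7% of all genes were called, 3 had an unadjusted p under 0.05 and DESeq2 called 2. With the diet 0 were called by either tool, where edgeR called 18.4% of all genes, and 0 had an unadjusted p under 0.05.

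Downstream of the receptors, 3 of 14 genes of JAK-STAT3 signalling were lower with the inhibitor and none higher, a share of 21.4%, beside 18.2% of all genes called and 8.42% called lower. They were Stat3 (86.1 to 62.7 CPM, -0.46 ± 0.09, adjusted p = 0.0027, edgeR), Tyk2 (-0.45 ± 0.13) and Pias3 (-0.45 ± 0.15). Stat3 was also lower in HFD than in LFD (-0.43 ± 0.09, adjusted p = 0.00608). Of 19 NF-κB genes, 7 were lower and 1 higher with the inhibitor (42.1% called, beside 18.2% of all genes), with Tnfaip3, a brake on the pathway, at -0.76 ± 0.22, Tlr2 at -0.71 ± 0.20, Nfkbie at -0.70 ± 0.15 and the adaptor Myd88 at 0.48 ± 0.11. None of the 10 genes of C/EBP and other liver factors was called in this comparison by edgeR or DESeq2, and 4 had an unadjusted p under 0.05. Of 9 glucocorticoid response genes, 2 were called (22.2%, beside 18.2% of all genes). Hsd11b1, the enzyme that makes active glucocorticoid, fell from 196 to 103 CPM with the inhibitor (-0.93 ± 0.14, adjusted p = 0.000194), and Tsc22d3 fell by 0.87 on the log2 scale. Hsd11b1 was higher with the siRNA, at 332 CPM (0.76 ± 0.14, adjusted p = 0.0031).

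Among 13 receptors and partners of the acute phase proteins, 2 were lower and 2 higher with the inhibitor (30.8% called, beside 18.2% of all genes). Slc22a17, the receptor of lipocalin 2, fell from 0.749 to 0.356 CPM (-1.09 ± 0.31, adjusted p = 0.0224, edgeR) and Scarb1, the HDL receptor, from 161 to 107 CPM (-0.59 ± 0.16, adjusted p = 0.0167). Cd36, a fatty acid and lipoprotein receptor, rose from 109 to 443 CPM (2.03 ± 0.22, adjusted p = 7.36e-06), and Apoa2, an HDL protein, from 3240 to 4490 CPM (0.47 ± 0.15, adjusted p = 0.0343).

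The markers of liver cell types were set beside these results. Summed hepatocyte markers, of which Alb was the most abundant, stood at 76300 ± 7590 CPM in LFD, 65000 ± 6630 in HFD, 68700 ± 4830 with the siRNA and 40100 ± 1430 with the inhibitor, and 4 of the 6 were lower in HFD + Inhib than in HFD. Alb went from 50900 ± 5510 to 29900 ± 1760 CPM (-0.77 ± 0.13, adjusted p = 0.000761, edgeR). In bulk liver RNA, fewer hepatocytes and less RNA per hepatocyte cannot be told apart, and the part of either in the falls above was not tested. The inhibitor mice had 61.7% of the summed hepatocyte markers of the HFD mice, a value set mostly by Alb. Ttr, Apoc3 (-0.72 ± 0.19) and Cps1 (-0.53 ± 0.14) were lower too, whereas Apoa1 (-0.27 ± 0.15, adjusted p = 0.247) and Cyp3a11 (0.21 ± 0.23, adjusted p = 0.576) were not called. Alb, Ttr and Apoa1 also stand in the list of negative acute phase genes. The falls of Lcn2, Saa3, Saa2, Saa1 and Orm2 were larger than that of Alb, and those of Saa4, Crp and Orm1 were smaller, with no test of these differences.

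Kupffer cell and macrophage markers summed to 253 ± 22.9 CPM in HFD and 195 ± 37.7 in HFD + Inhib, led by Clec4f. Of the 8, Clec4f (-0.51 ± 0.12) and Cd5l (-0.54 ± 0.17) were called lower. Vsig4, Adgre1, Cd68 and Csf1r had lower means without a call. Marco (3.69 to 6.59 CPM) and Timd4 (4.65 to 5.39 CPM) had higher means, and neither was called. Neutrophils, which carry lipocalin 2 and haptoglobin, were represented by 12 markers that summed to 3.12 ± 0.771 CPM in HFD and 2.79 ± 0.547 in HFD + Inhib. Most of that sum was Csf3r, at 1.87 ± 0.374 and 1.66 ± 0.275 CPM. Ly6g was at 0 in both groups, and 0 of the 3 neutrophil markers that passed the filter were called by edgeR or DESeq2 or had an unadjusted p under 0.05. The 5 adipocyte markers summed to 0.952 ± 1.05 CPM in LFD, 2.87 ± 3.31 in HFD, 7.42 ± 1.83 with the siRNA and 34.5 ± 16.2 with the inhibitor. Nearly all of the inhibitor sum was Cfd, for the serine protease adipsin, which rose 12.8-fold, from 2.58 ± 2.78 CPM in HFD to 34.5 ± 16.2 (3.67 ± 0.58, adjusted p = 0.000315, edgeR), while Adipoq had at most 3 counts in any HFD + Inhib library and Lep had 0. The highest Cfd level among the HFD libraries was that of replicate 2, at 6.7 CPM, and the lowest with the inhibitor was 16.9 CPM. Markers of monocytes summed to 28.7 CPM in HFD and 27.1 with the inhibitor, of cholangiocytes to 11.1 and 15.9, of stellate cells to 416 and 327, of endothelial cells to 259 and 249 and of lymphocytes to 3.6 and 1.54 CPM. The parts of these cells in the results were not tested.

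**Figure D5:**
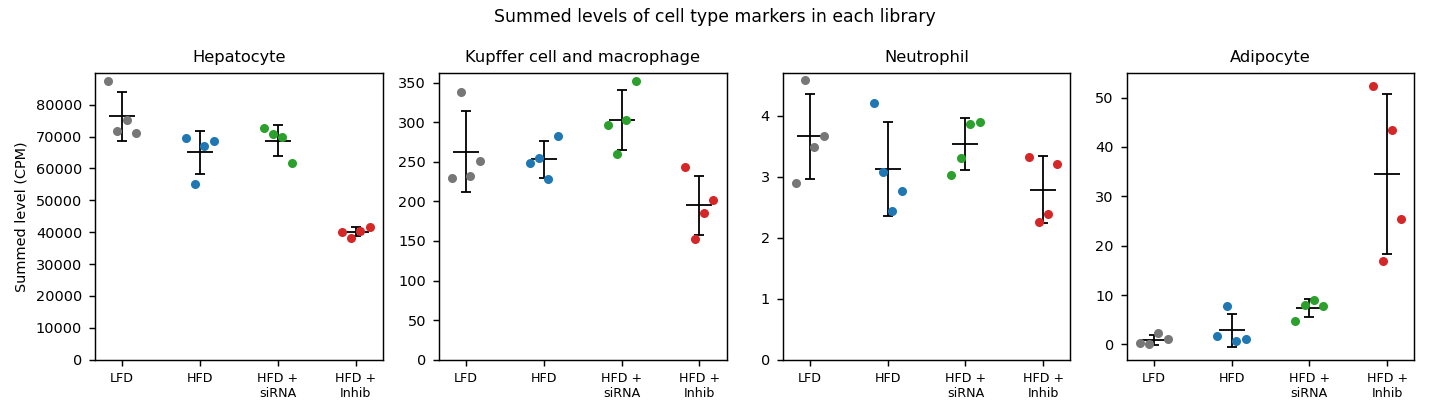
Summed level (CPM, linear axis) of the markers of 4 cell types in each of 16 libraries, with the mean ± SD of 4 mice in black. Hepatocyte sums are 38200 to 41600 CPM in HFD + Inhib against 55200 to 69500 in HFD, and neutrophil sums stay under 5 CPM.

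Over the 16 libraries, the genes whose log2 level followed a member most closely were listed, as a description across samples that share their 4 groups and their sequencing. Saa4 ran with Rnase4 (Pearson r 0.934, Spearman rho 0.865) and Ang (0.914, 0.912), both ribonuclease genes. Hpx ran with Cbs, an enzyme of homocysteine metabolism (0.940, 0.903), and with the complement gene C9 (0.925, 0.868). Orm1 ran with Ddost, a subunit of the enzyme that adds N-glycans (0.916, 0.912), the complement gene C8b (0.912, 0.832) and the lipocalin Apom (0.900, 0.853). Lcn2 ran with Parp11 (0.932, 0.935), Orm2 with Gmppa (0.914, 0.876) and the interferon-induced Irgm1 (0.913, 0.871), and Saa1 with Amigo3 (0.901, 0.876). Between members, r over the 16 libraries was 0.90 for Saa1 and Saa2 and 0.74 for Hp and Hpx, and it was 0.87 and 0.86 on deviations from the group means. For Saa4 and Lcn2 it was 0.70 over the libraries and -0.29 on those deviations.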

How the data were processed

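Liver RNA was measured in 16 libraries, 4 in each of 4 groups, which were taken from the deposited labels. The authors deposited expected counts per gene symbol as RSEM estimates them, for 50559 symbols and with no scaling between libraries. The submitters' processing notes name STAR, RSEM and the build mm39, with versions not given in the sources used here. The study's methods name HTG EdgeSeq, a probe assay, and which assay made the table was not settled. Library totals were 24317111 to 35820234 (median 29570114), and 15.1% of values were not whole. The labels number the libraries of a group 1 to 4 without stating that each is a separate mouse, and if they are not, p-values measure only the spread between libraries.

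Expected counts were rounded. Genes were kept by filterByExpr (minimum count 10, minimum total 15), which left 18335 of 33142 with any count. TMM scaling was used (factors 0.93 to 1.09). All 16 libraries entered 1 edgeR quasi-likelihood fit (common dispersion 0.038), from which 6 comparisons were drawn. P-values were adjusted by Benjamini-Hochberg over all genes tested, with a threshold of 0.05, and confidence intervals are 95%. Comparisons that share a group are not independent. R 4.3.3, edgeR 4.0.16, limma 3.58.1 and DESeq2 1.42.0 were used, and the scripts were tested on simulated data.

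The members and the lists were chosen with earlier results of these data known. Named were the 10 members and, of each list, up to 3 genes with the largest increase and 3 with the largest decrease among those called, low-count ligands and receptors by name, and for likeness the genes outside the members with the highest Pearson r of log2 CPM (prior count 2) over the libraries. Further genes of lists with 5 or fewer calls in a direction, and marker genes named beside the results, were chosen after their values were seen. Results for 1 listed gene are not reported here. Lengths, GC content and shared 50-base words came from GENCODE M21, which holds 37796 of the symbols, and promoters from RefSeq (GRCm38.p6). No mm39 coordinates are given.

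Alternatives were DESeq2, RLE size factors, no filter, at least 10 counts in every library, only the 2 groups compared, a block for the replicate number, each library left out in turn, an adjusted p under 0.01, copies summed, and offsets for GC content and length.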

Additional observations from a re-analysis of the deposited data

Results flagged for a closer look

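Of 40 sets of 4 libraries (10 genes in 4 groups), 2 held a library far from the other 3, where chance gives about 1 in 20. Both were Saa3, the serum amyloid gene with the lowest level. Among the LFD mice 1 library had 1.16 CPM and the nearest other 2.56, and among the HFD + siRNA mice 1 library had 2.43 CPM and the nearest other 1.75. The counts per library were 39 to 80 in LFD and 47 to 83 in HFD + siRNA. Both values lay above every HFD + Inhib library, whose highest was 0.777 CPM.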

How the results depend on the processing

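Of 1014 alternative values for the 10 genes over the 6 comparisons, 937 kept direction and side of the threshold, 30 lost a call, 9 gained one and 38 changed sign, and none that changed sign was called. The causes were not tested. Counts of called members in HFD + Inhib versus HFD fell from 8 to 4 at an adjusted p under 0.01 and ranged from 4 to 8 when a library was left out. With only the 2 groups compared, Saa4 lost its call in HFD versus LFD (adjusted p = 0.0643, edgeR), Hpx gained one in HFD + Inhib versus HFD (0.0478) and Saa2 between the inhibitor and siRNA groups (0.0197). Fold changes were related to GC content across 8341 genes. Spearman rho was -0.53 for HFD versus LFD, and 0.51 and -0.27 for the siRNA and the inhibitor against HFD. It was -0.53 for the inhibitor against the siRNA, and -0.08 and -0.56 for the siRNA and the inhibitor against LFD. Offsets for GC content and length gave Crp a call between the inhibitor and siRNA groups (-0.61, adjusted p = 3.54e-05, edgeR). They kept all 8 calls of HFD + Inhib versus HFD.

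Calls over all genes at an adjusted p under 0.01 were 1287 (in place of 3369) for the diet, 689 (2154) for the siRNA and 1733 (3339) for the inhibitor against HFD, 3711 (6207) for the inhibitor against the siRNA, and 566 (1582) and 4124 (6767) for the siRNA and the inhibitor against LFD. With only the 2 groups compared, HFD + siRNA versus LFD gave 808. Leaving out a library gave 2001 to 3691 in HFD versus LFD, 1100 to 1981 for the siRNA against HFD and 965 to 1456 for the siRNA against LFD.

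The labels do not state that the replicate numbers pair the mice. Of 24 same-numbered pairs, 6 had a correlation of deviations over 0.1 (range -0.132 to 0.336, median 0.068). Pairs with different numbers were not compared, so these values cannot settle whether the numbers pair the mice. With the replicate number as a block, Hpx was called in HFD + Inhib versus HFD (-0.59, adjusted p = 0.014, edgeR), and no other call of the 10 genes changed. Under the block Saa2 changed sign in HFD versus LFD (0.05), Khk did too (0.00), and Saa1 in HFD + siRNA versus LFD (0.08).

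The other changes of sign were in differences that had not been called. With offsets for GC content and length they were, for the diet, Khk 0.21, Saa2 0.24 and Crp -0.17, for the siRNA against HFD, Saa1 -0.08, Orm1 -0.24 and Lcn2 -0.17, for the inhibitor against the siRNA, Hp 0.04, and for the inhibitor against LFD, Lcn2 0.07. With at least 10 counts in every library they were Khk 0.01 in HFD versus LFD and Orm1 -0.01 in HFD + siRNA versus HFD, and with copies summed Saa1 -0.01 in the latter. With a library left out, sign-changing differences ranged, for the diet, from -0.69 to 0.41 for Saa1, -0.43 to 0.64 for Saa2, -0.17 to 0.14 for Saa3, -0.08 to 0.12 for Hp, -0.01 to 0.35 for Orm2, 0.00 to 0.12 for Crp and -0.12 to 0.15 for Khk. They ranged, for the siRNA against HFD, from -0.21 to 0.46 for Saa1, -0.05 to 0.08 for Orm1 and -0.15 to 0.45 for Lcn2, for the siRNA against LFD, from -0.60 to 0.66 for Saa1, -1.03 to 0.04 for Saa2, -0.17 to 0.04 for Hp and -0.19 to 0.21 for Hpx, and for the inhibitor against LFD, from -0.36 to 0.14 for Lcn2. Of the 10 genes, Saa3 had the fewest counts, 16.07 to 22 per HFD + Inhib library. Limits from depth were not compared between the genes.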
